A study of Mus musculus with 2 samples.

Results

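The NOTCH genes examined were the receptors Notch1, Notch2 and Notch3, the ligands Dll1, Dll4, Jag1 and Jag2, and the target genes Hes1, Hey1 and Heyl. Every probe carrying one of these 10 symbols was taken from the scanner files of 2 two-colour arrays, which gave 13 of 39429 probes. Each of 12 of them had a RefSeq accession that mapped to the same symbol, and no probe carried an older name of a member. The arrays compared RNA of ureters dissected from NMRI mouse embryos at E13.5. The control ureters were Fgfr1(fl/?);Fgfr2(fl/?). The mutant ureters carried Pax2-cre/+ in addition and were homozygous for floxed Fgfr2, written Fgfr2(fl/fl), with Fgfr1(fl/?) as in the controls. Fgfr1 and Fgfr2 encode receptors for fibroblast growth factors, the question mark stands for a wild-type or a floxed allele, and Cre deletes floxed segments only in cells where the Pax2 driver has been active. The mutant RNA came from a pool that combined ureters labelled Fgfr1/+ with ureters homozygous for floxed Fgfr1, in shares that are not given. Whether a control sample was also a pool is not stated, and all 4 RNAs are called pools here. The female pools shared array 1, where the mutant was labelled with Cy5 and the control with Cy3. The male pools shared array 2, labelled the other way round, so the sex of the pools and the dye of the mutant RNA cannot be told apart.

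NOTCH signalling passes between touching cells. Ligands of the Delta and Jagged families on one cell bind a NOTCH receptor on its neighbour, the receptor is cut, and its released intracellular part joins the DNA-binding protein RBPJ to switch on target genes, among them repressors of the Hes and Hey families. In developing organs the pathway takes part in choosing between cell fates, in the growth of vessels and in the formation of the mural cells around them.

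No NOTCH receptor, ligand or target passed the test between mutant and control ureters. The targets Hes1 and Hey1 stayed within 0.15 of 0 on the log2 scale on each array. Heyl, on the other hand, had the highest mean ratio of the members and was higher in the mutant on both arrays, and Notch1 was lower in the mutant on both. Notch3, and Notch2 at its brighter probe, had ratios above 0 on the female array and well below 0 on the male array. The dimmer Notch2 probe had ratios of -0.03 on the female and 0.25 on the male array. By limma, 0 of 10 members had an adjusted p under 0.05, where 0.0287% of all 20923 tested genes did. At an unadjusted p under 0.05 there was 1 member, Heyl, beside 4.04% of all genes. No member was past 1.5-fold in one direction on both arrays, as 0.392% of all genes were. On array 2 alone 1 member, Notch2 at its brighter probe, was past 1.5-fold (6.88% of all genes), and on array 1 alone 0 members were (1.91%). Ratios are given as log2 of mutant over control, levels are log2 intensities of 1 probe after normalisation, and fitted values are means with SD (n = 2 arrays).

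The members did not share a direction. Of the 10 members, 3 were higher on both arrays (Dll1, Hey1 and Heyl), 1 was lower on both (Notch1), and 6 went opposite ways. Over all tested genes, 22.1% were higher on both arrays, 21.4% lower on both, and 56.5% went opposite ways. The median of the members was -0.011, with 0.038 on array 1 and 0.065 on array 2, beside 0.0044 for all genes. After median centring of the arrays in place of loess, 2 members were higher and 3 lower on both arrays. In 9 of the 10 members the ratio was larger in size on array 2, and over all genes the ratios of array 2 also had the wider spread, with an SD of 0.325 against 0.208.

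**Figure D1:**
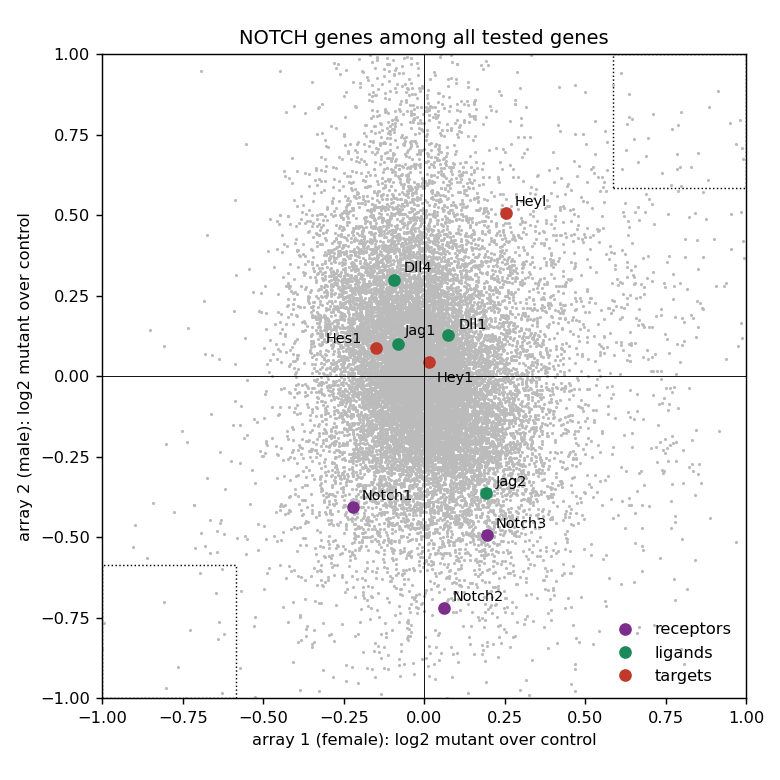
Log2 mutant over control on array 1 (x axis, female pools) and array 2 (y axis, male pools). Grey points are the tested genes, 306 of which lie outside the axes; coloured points are the 10 members by role, and dotted boxes mark genes past 1.5-fold in one direction on both. No member lies in a box, and Notch2 (brighter probe) and Notch3 lie to the right of 0 and far below it.

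The tissue and sex labels were compared with markers. All 18 markers of the ureteric epithelium and all 12 of the ureteric mesenchyme passed the filter on dim probes, and no spot was saturated. So did all 15 leukocyte, 10 erythroid and 9 nephron progenitor markers, and 20923 of 30011 genes. Passing the filter therefore does not tell whether the tissue was ureter. Xist, a transcript made from the silenced X chromosome of females, differed between the male pools. At its brighter probe the level was 12.42 in each female pool and 8.39 in the male mutant pool, and the ratio of -1.60 on array 2 puts the male control pool above the male mutant pool. The Y-linked Ddx3y was at 11.88 in the male mutant and 11.57 in the male control pool, and at 8.15 and 8.44 in the female ones. On array 2 its ratio of 0.31 was opposite in sign to that of Eif2s3y (-0.30), which is also Y-linked and passed the filter. Eif2s3y levels were 11.22 (male mutant), 11.51 (male control), 8.3 (female mutant) and 8.4 (female control). Y-linked probes that did not pass had array 2 ratios of 0.16 and -0.45 for Uty and -0.09 for Kdm5d. The Y-linked genes thus shared no direction between the male pools. The other Xist probe had a ratio of -1.24 on array 2. The male control pool thus lay between the others for Xist, and whether it held some female ureters was not tested. Male and female are used below as the labels give them, and every member is given on array 1 alone as well. The probes of the targeted genes did not show the deletion. Both Fgfr2 probes had means above 0 (0.16 and 0.09), and the 3 Fgfr1 probes had means from -0.08 to 0.27. The sources used here do not say where the floxed segments lie, and probes outside them check nothing. The number of embryos behind each RNA is not given, so p-values take in no spread beyond that between these 2 arrays, whose number limits the precision. For each gene limma draws this spread mostly from all genes, with 6.31 prior degrees of freedom against 1 residual. In bulk RNA, fewer cells of a type and less RNA per cell cannot be told apart.

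Averaged over both arrays, the receptors had the lowest ratios of the members as processed here. With the processed signals Jag2 (-0.18) was below Notch3 (-0.15), and on array 1 alone Notch2 and Notch3 were above 0. Notch1 and Notch2 each had a pair of probes, of which 1 Notch1 probe was near background and the Notch2 probes differed. The pairs are shown by the last 30 of their 60 bases, read 5′ to 3′ from the deposited scanner files.
Notch1, brighter probe: aacagtgaagaagaagaagatgcacctgct
Notch1, dimmer probe: aaaagaacgtgacaggagaagggaagctgg
Notch2, brighter probe: aaggtgttcagtgttcacgtgtgatttcag
Notch2, dimmer probe: gatgtgaccaccagcccaactcctggaggt
The brighter Notch1 probe lies at chr2:26319440-26319499 on the minus strand and the dimmer at chr2:26314630-26314689, with a distance of 4751 bases between them. The brighter Notch2 probe lies at chr3:97953914-97953973 on the plus strand and the dimmer at chr3:97951233-97951292, at a distance of 2622 bases. All positions are those of the array design, which is annotated on mm9 and does not say whether a probe lies in coding sequence or in a UTR. The share of G and C was 55% in the brighter Notch1 probe and 40% in the dimmer one, whereas for Notch2 it was 41.7% in the brighter and 55% in the dimmer.

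Notch1, a receptor that acts in vessels and many epithelia, was at a level of 11.57 in the female and 11.41 in the male mutant pool. Its level was 11.79 in the female and 11.82 in the male control pool. Both mutant pools were thus below both control pools, a separation of the groups in either direction that 23.5% of all tested genes had. The ratios were -0.22 on array 1 and -0.41 on array 2, and all 4 spots of the probe were below 0 on each array. The mean was -0.31 ± 0.13, a 1.24-fold lower level, with a 95% interval of -0.67 to 0.04 (limma adjusted p = 1, unadjusted p = 0.0744). Intervals here are those of a single gene, with no correction for the number of genes tested. The dimmer Notch1 probe gave no measure of this difference. It was well above background in 1 of 4 spots of the male mutant pool and in no spot of the other pools, and was not tested.

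Notch2, a receptor with broad expression in the developing kidney and urinary tract, differed between the arrays. At its brighter probe the level was 12.65 in the female mutant pool and 12.59 in the female control pool. On the male array it was 11.79 in the mutant and 12.51 in the control pool. The male mutant pool was the one that stood apart, 0.86 below the female mutant pool, while the control pools lay 0.077 apart. The ratio was 0.06 on array 1 and -0.72 on array 2, a 1.65-fold lower level on the second, where 1.07% of all tested genes had a lower ratio. The spots spread little, with an SD of 0.051 on array 1 and 0.033 over the 3 spots of array 2 that carried no outlier flag. Repeat spots of a probe measure 1 RNA pool again, so this spread says nothing of how pools of a group vary. The mean of -0.33 ± 0.55 had an interval of -0.81 to 0.15 (limma adjusted p = 1).

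The dimmer Notch2 probe did not show this lower level on the male array. Its level was 6.83 in the female mutant and 6.87 in the female control pool, and 7.01 in the male mutant and 6.76 in the male control pool. Its ratios were -0.03 and 0.25, so that on array 2 the 2 Notch2 probes pointed in opposite directions. Every spot of the dimmer probe was above 0 on array 2, from 0.093 to 0.45, and every unflagged spot of the brighter one was below -0.68. The mean of the dimmer probe was 0.11 ± 0.20, with an interval of -0.25 to 0.47 (limma over all tested probes, adjusted p = 1). With the mean of both probes in place of the brighter one, the Notch2 ratio was -0.11.

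Notch3, the receptor of smooth muscle and pericytes around vessels, also differed between the arrays. Its probe lies at chr17:32257848-32257907 on the minus strand. The level was 12.95 in the female mutant and 12.76 in the female control pool, and 12.46 in the male mutant and 12.95 in the male control pool. As for the brighter Notch2 probe, the male mutant pool was the lowest of the 4. The ratios were 0.19 and -0.49, with every spot above 0 on array 1 (0.16 to 0.25) and below 0 on array 2 (-0.53 to -0.43). The mean was -0.15 ± 0.49, with an interval of -0.60 to 0.31 (limma adjusted p = 1). After median centring the mean was -0.31, where the median of all genes was -0.084. The 10 tested smooth muscle markers had medians of 0.32 (array 1) and 0.03 (array 2). Their summed level was 14515 in the female mutant and 11355 in the female control pool, and 10801 in the male mutant and 12373 in the male control pool, with Lmod1 below the filter. This sum was higher in the mutant on array 1 and lower on array 2, as were those of the nephron progenitor, urothelial, and gonad and adrenal markers. Over all tested genes, 56.5% went opposite ways on the arrays. Gene by gene, 5 of these markers were higher on both arrays, 1 was lower and 4 went opposite ways. The summed pericyte and mural markers were higher in the mutant on array 1 (50988 against 42246) and array 2 (48436 against 43490). The part of the smooth muscle or the mural markers in the Notch3 ratios was not tested.

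**Figure D2:**
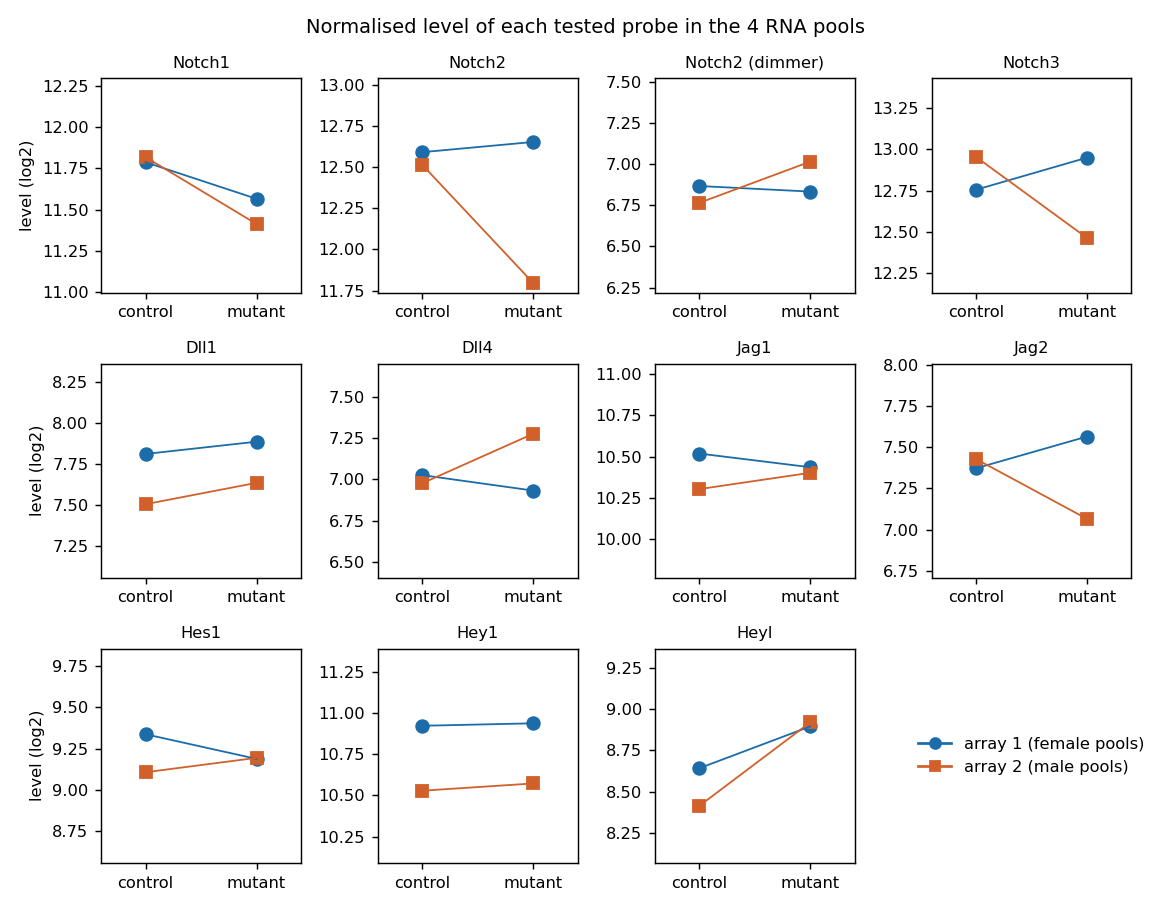
Normalised log2 level (y axis, each panel spanning the same range) of the 11 tested probes in control and mutant pools. Circles joined by a line are the female pools of array 1, and squares the male pools of array 2. The male mutant pool is the lowest for Notch2 and Notch3 at their bright probes and for Jag2, and mutant and control pools do not overlap for Notch1 and Heyl.

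The ligands lay closer to 0 on average, with means from -0.085 to 0.10. Dll4, the Delta ligand of sprouting vessels and arteries, was measured at chr2:119160779-119160838 on the plus strand. Its level was 6.93 in the female mutant and 7.03 in the female control pool, and 7.28 in the male mutant and 6.98 in the male control pool. The male mutant pool was the highest, and the other 3 pools lay within 0.1 of each other. The ratios were -0.09 and 0.30, and the mean of 0.10 ± 0.28 had an interval of -0.28 to 0.49 (limma adjusted p = 1). The probe was dim, and with the processed signals of the scanner software, to which no offset of 50 is added, the ratios were -0.26 and 0.45.

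Dll1, a Delta ligand, was higher in the mutant on both arrays by small amounts. Its level was 7.89 in the female mutant and 7.81 in the female control pool, and 7.64 in the male mutant and 7.51 in the male control pool. The pools differed more by array than by genotype, and the groups overlapped. The ratios of 0.07 and 0.13 gave a mean of 0.10 ± 0.04, with an interval of -0.24 to 0.45 (limma adjusted p = 1). The probe lies at chr17:15504623-15504682 on the minus strand. A second Dll1 probe at chr17:15513726-15513785, designed on an Ensembl transcript, was well above background in 2 of 4 spots of the male mutant pool and in no spot of the other pools, and was not tested.

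Jag1 and Jag2 encode the Jagged ligands, of which JAG1 is known for vessel walls, bile ducts and kidney. Jag1 was at 10.44 in the female mutant and 10.52 in the female control pool, and at 10.40 in the male mutant and 10.30 in the male control pool. The groups overlapped. Its ratios of -0.08 and 0.10 were small but had opposite signs in every spot, and the mean was 0.0082 ± 0.13, with an interval of -0.35 to 0.36 (limma adjusted p = 1). The probe lies at chr2:136907433-136907492 on the minus strand.

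Jag2 was at 7.56 in the female mutant and 7.37 in the female control pool, and at 7.07 in the male mutant and 7.43 in the male control pool. The male mutant pool was again the lowest. The ratios were 0.19 and -0.36, with every spot above 0 on array 1 and below 0 on array 2. The mean of -0.085 ± 0.39 had an interval of -0.51 to 0.34 (limma adjusted p = 1). Jag2 was dim as well, and with the processed signals its ratios were 0.30 and -0.66. Its probe lies at chr12:114146887-114146946 on the minus strand.

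**Figure D3:**
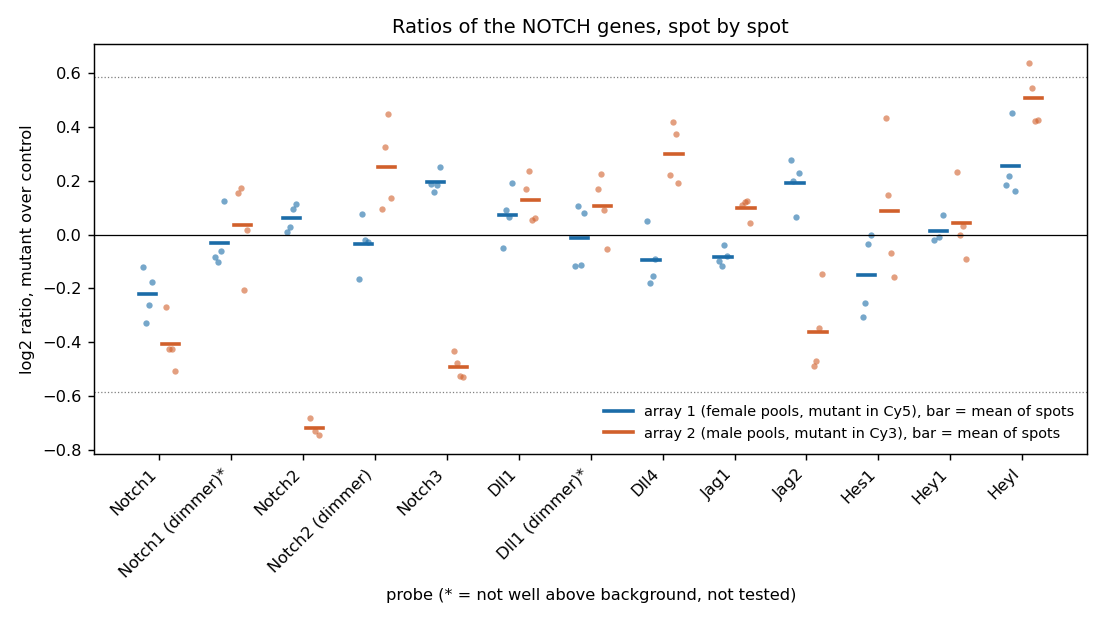
Log2 mutant over control (y axis) at each of the 13 probes (x axis). Points are unflagged spots, at most 4 per array, bars are their mean, blue is array 1 and orange array 2, and dotted lines mark 1.5-fold. Every spot lies on opposite sides of 0 on the arrays, as for 22.5% of all genes, at the brighter Notch2 probe, Notch3, Jag1 and Jag2, while the spots of Hes1 spread widely on both arrays.

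The target genes are transcribed in response to active receptors, and none of the 3 passed the test. Hes1, a repressor that keeps progenitors undifferentiated, was measured by a probe at chr16:30067820-30067879 on the plus strand. Its last 30 bases are shown because they hold AATAAA, the main polyadenylation signal, in capitals.
Hes1: tgagaaaatatAATAAAagagtgaaggctt
Read on the probe strand alone, AATAAA was in 12.6% of all 39429 probes of this length, and this match in the probe is a description of its letters. The Hes1 probe was poor in G and C (26.7%, beside a median of 41.7% over all probes). Its level was 9.19 in both mutant pools, 9.34 in the female and 9.11 in the male control pool, so the mutant pools lay between the controls. The ratios were -0.15 and 0.09, and its spots were the most scattered of the members, with an SD of 0.26 on array 2. The mean was -0.031 ± 0.17, with an interval of -0.39 to 0.33 (limma adjusted p = 1).

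Hey1, a repressor that responds to NOTCH in vessels and other tissues, was at 10.94 in the female mutant and 10.92 in the female control pool. The male mutant pool had 10.57 and the male control pool 10.53. Its level thus differed by 0.37 to 0.39 between the arrays and by less than 0.05 between mutant and control on either. The ratios of 0.01 and 0.04 gave a mean of 0.03 ± 0.02, with an interval of -0.32 to 0.37 (limma adjusted p = 1). The mean was -0.10 after median centring, where the median of all genes was -0.084. The probe lies at chr3:8663432-8663491 on the minus strand.

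Heyl, a relative of Hey1 found in smooth muscle and pericytes of vessels, was the member with the largest mean ratio above 0. The probe lies at chr4:122926975-122927034 on the plus strand. The level was 8.89 in the female and 8.92 in the male mutant pool, and 8.64 in the female and 8.41 in the male control pool. Both mutant pools were above both controls, a separation that 23.5% of all genes had in one direction or the other. The ratios were 0.25 and 0.51, with all 4 spots above 0 on each array (0.16 to 0.45 and 0.42 to 0.64). On array 1, 9.11% of all genes had a higher ratio, and on array 2, 6.28%. The mean was 0.38 ± 0.18, a 1.30-fold higher level, with an interval of 0.019 to 0.74. The unadjusted p was 0.0416 and the adjusted p 1 in limma, so Heyl did not pass over all genes. No member had an unadjusted p under 0.05 when either the processed signals or the authors' deposited table was fitted. After median centring Notch1 had one and Heyl did not, and both had one with dim probes kept and from a separate fit of the 4 channels.

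Heyl is known from mural cells, whose other markers were therefore set beside it. Both arrays had 5 of 9 pericyte and vascular mural markers higher and 1 lower. Their median was 0.11, and Mcam and Kcnj8 had the largest means, 0.50 and 0.48. Their summed level ran from 48436 to 50988 in the mutant and from 42246 to 43490 in the control pools, in linear intensity. Among 15 endothelial markers 7 were higher on both arrays and 2 lower, and the median was 0.047. Their summed level was 55800 to 58001 in the mutant and 50530 to 53608 in the control pools. Cldn5 and Erg had the largest means of these, 0.58 and -0.30. Every marker of both lists passed the filter on dim probes, and their part in the Heyl and Notch1 ratios was not tested. None of these genes passed the limma test over all genes, and 2 of 9 mural markers and 1 of 15 endothelial markers had an unadjusted p under 0.05, as 4.04% of all genes did.

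**Figure D4:**
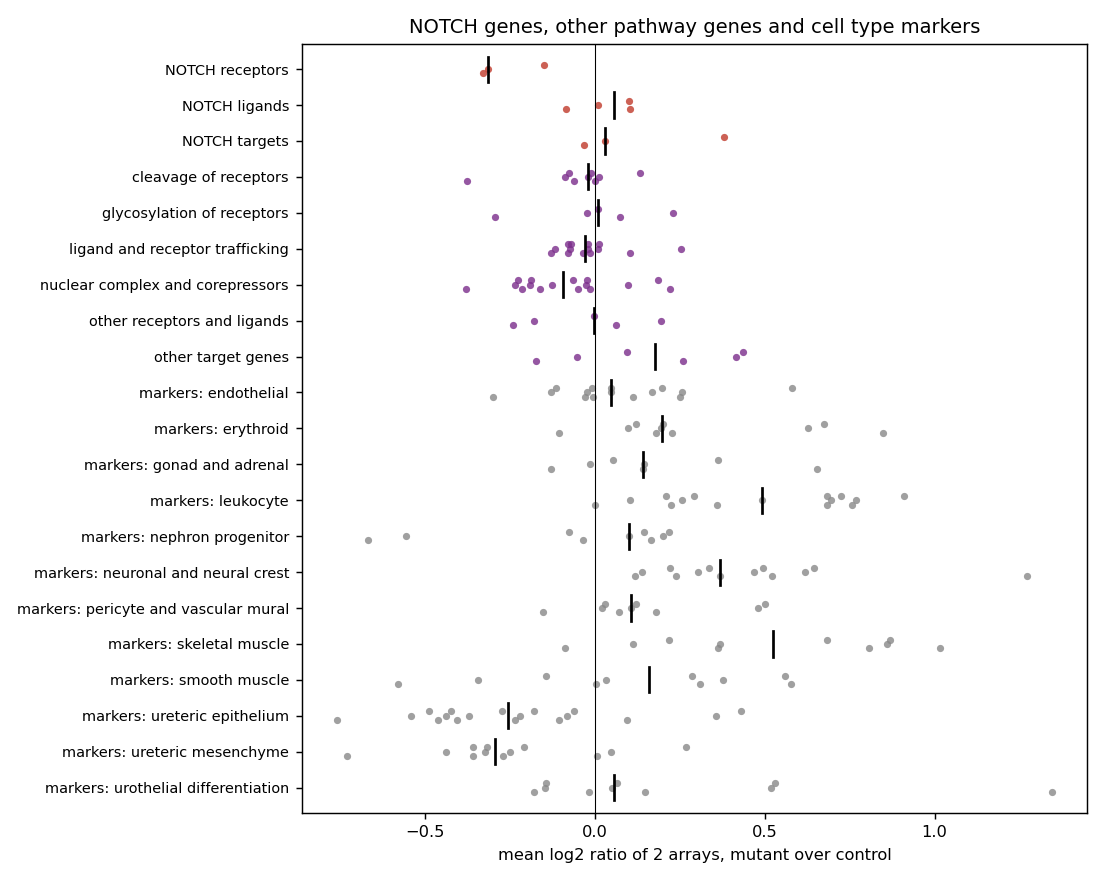
Mean log2 mutant over control of both arrays (x axis) for each tested gene of the NOTCH roles (red), of the other pathway lists (purple) and of the cell type markers (grey). Vertical bars are list medians; the receptor median is -0.31 (0.06 on array 1 and -0.49 on array 2), and the leukocyte, skeletal muscle and neuronal medians lie above 0.3.

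No gene from the rest of the pathway passed the test. The list held 58 other genes, of which 55 were tested. Of these, 6 were higher and 14 lower on both arrays and 35 went opposite ways, beside 22.1%, 21.4% and 56.5% of all genes. Their median was -0.024, with 0.0088 on array 1 and -0.14 on array 2. By limma 0 of the 55 passed an adjusted p of 0.05 and 1 had an unadjusted p under 0.05, and none was past 1.5-fold in one direction on both arrays. From each list, the gene with the largest mean among those with 1 direction on both arrays is given.

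Lfng adds sugars to the receptors and changes which ligands they answer. It was at -0.34 and -0.25, in a list of 5 glycosylation enzymes with a median of 0.011. Furin, the protease that matures the receptors, was at -0.08 and -0.68, and the 9 tested cleavage genes, which include the gamma-secretase subunits, had a median of -0.021. Mib1, the ubiquitin ligase that activates ligands, was at -0.13 on both arrays, and the 14 trafficking genes had a median of -0.027.

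Of 16 genes for the RBPJ complex and its corepressors, 8 were lower and 0 higher on both arrays, beside 21.4% and 22.1% of all genes. The median mean was -0.095, and the arrays had -0.048 and -0.23. None of these 16 passed the limma test, either adjusted or at an unadjusted p under 0.05. Spen, a corepressor that binds RBPJ, was at -0.02 and -0.73. Rbpj had ratios of -0.07 and -0.03, and is named here outside the rule, with its values known. After median centring the median of this list was -0.26, beside -0.084 for all genes.

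Among the other receptors and ligands Dlk1, a Delta-like protein that lacks the part needed to activate receptors, was at 0.35 and 0.04, in a list of 5 with a median of -0.0030. Of 8 other target genes 6 were tested, 2 were higher and 0 lower on both arrays, and the median was 0.18, or 0.064 with no filter on dim probes. Hes5, a target best known from neural progenitors, was at 0.63 and 0.24 (unadjusted p = 0.0309, adjusted p = 1 in limma). On the same arrays 12 of 13 tested neuronal and neural crest markers were higher on both and 0 lower. Their median was 0.37, and their summed level was 70546 to 71653 in the mutant and 62194 to 62677 in the control pools. Their part in the Hes5 ratio was not tested.

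Markers of other cell types had list medians from -0.29 to 0.53. Of 15 leukocyte markers, 11 were higher on both arrays and 0 lower (median 0.49), with C1qa and Csf1r at means of 0.91 and 0.77 and a summed level of 39833 to 72005 in the mutant and 33719 to 43856 in the control pools. Of 10 tested skeletal muscle markers, 8 were higher and 1 lower (median 0.53), with Myh3 and Tnnc2 at 1.02 and 0.87, while Myf5 and Ckm did not pass the filter. Their summed level was 6195 to 6329 in the mutant and 3386 to 3859 in the control pools. Medians were 0.20 for erythroid, 0.16 for smooth muscle, 0.14 for gonad and adrenal, 0.10 for nephron progenitor and 0.057 for urothelial genes. The 10 tested urothelial genes, 5 higher and 2 lower on both arrays, included Upk3a and Grhl3 at means of 1.35 and 0.53. Of 18 epithelial markers, 11 were lower and 1 higher (median -0.25), with Tfap2b and Shh at -0.76 and -0.54, and of 12 mesenchymal ones 9 were lower and 1 higher (median -0.29), with Foxf1 and Tbx3 at -0.73 and -0.44. The summed epithelial level was 72296 to 77943 in the mutant and 89795 to 93703 in the control pools, and the mesenchymal one 113500 to 118178 and 132404 to 133326. None of these markers passed the adjusted limma test. An unadjusted p under 0.05 was found for 8 of 18 epithelial, 2 of 12 mesenchymal, 8 of 15 leukocyte and 5 of 10 skeletal muscle markers. The same held for 5 of 13 neuronal, 4 of 10 smooth muscle, 3 of 10 erythroid and 3 of 10 urothelial markers. It also held for 2 of 9 nephron progenitor and 2 of 7 gonad and adrenal markers, beside 4.04% of all genes. Their part in the ratios of the NOTCH genes was not tested.

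**Figure D5:**
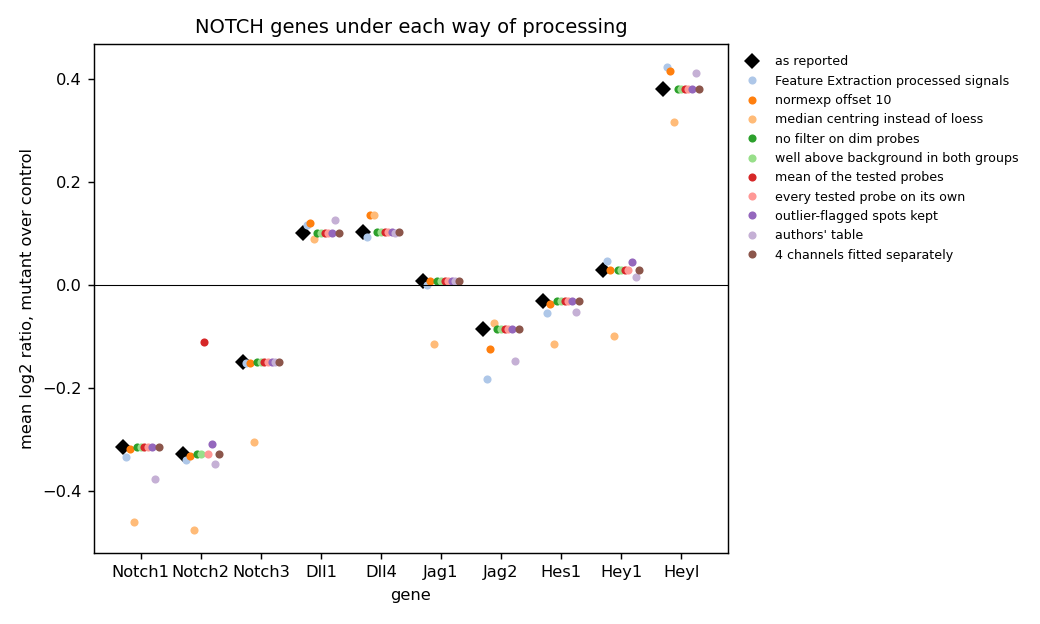
Mean log2 mutant over control (y axis) of each member (x axis) as reported (black diamonds) and under 10 other ways of processing (coloured points). The plotted values of Notch1, Notch2 and Notch3 stay below 0 and those of Heyl above 0. Several of the ways leave a member's ratio unchanged. Where each probe was fitted on its own, Notch2 is shown by its brighter probe, and its dimmer probe had a mean of 0.11. Median centring, where the median of all genes is -0.084, gives the lowest value for every receptor.

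Across 11 ways of processing, as reported and 10 others, the mean of Heyl lay between 0.32 and 0.42 and that of Notch1 between -0.46 and -0.31. Notch2, by its brighter probe where each probe was fitted on its own, ranged from -0.48 to -0.11 and Notch3 from -0.31 to -0.15. Dll1 and Dll4 stayed between 0.090 and 0.14, Jag2 between -0.18 and -0.074 and Hes1 between -0.12 and -0.031. Jag1 (-0.11 to 0.0084) and Hey1 (-0.10 to 0.047) lay on both sides of 0. Most of these ways could not change the ratio of a member with a single tested probe and no flagged spot. For Heyl and Notch1 only the processed signals, an offset of 10, median centring and the authors' table gave a mean other than the one reported. No member passed the limma threshold in any of the 11, where the lowest adjusted p of a member was 0.860.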

How the data were processed

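Per the submitters' processing notes, the arrays were quantified with Agilent Feature Extraction 10.7.3.1. Labelling used 150 ng of total RNA, per the labels' protocols. The mean and local background signals are intensity values without normalisation, per the file headers. Per the file headers, the processed signals are intensity values that the scanner software had corrected for background, detrended and dye-normalised by LOWESS, and the deposited log10 ratio of them was not used. A deposited table by the authors gives each probe a score on each array. It is a signed linear fold of unknown centring, whose sign ran as mutant over control (correlation with the processed ratios 0.973 and 0.991) and both column medians were 1.

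In limma 3.58.1 (R 4.3.3), normexp background correction with an offset of 50 was followed by loess within each array (span 0.3), where control spots had weight 0. Outlier-flagged spots (3.35% on array 1, 3.05% on array 2) were dropped, the remaining spots of each probe were averaged, and the ratio of array 2 was turned. Levels followed Aquantile normalisation; summed levels are linear with the offset subtracted. A probe was tested if a share above 0.5 of its spots was well above background in 1 group on both arrays (27493 probes), and the brightest such probe stood for its gene. Ratios were tested against 0 with lmFit and eBayes (1 residual and 6.31 prior degrees of freedom) and Benjamini-Hochberg adjustment over 20923 genes. The fit was tested on simulated data. Names were updated through RefSeq accessions of the GRCm38.p6 gene table, used for names only. Members and lists were chosen with earlier results of these data known. The text names all member probes, Fgfr1 and Fgfr2, from each pathway list the called or 1.5-fold genes or otherwise the largest mean with 1 direction, and at most 2 markers a list, of largest mean. Xist, Ddx3y, Eif2s3y, Uty, Kdm5d and the genes said to be outside the rule were named with their values known.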

Additional observations from a re-analysis of the deposited data

Results flagged for a closer look

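In 4 members every spot lay on one side of 0 on the female array and on the other side on the male array. The female ratio minus the male ratio, in log2 mutant over control, was 0.78 for Notch2 at its brighter probe, 0.687 for Notch3, 0.556 for Jag2 and -0.183 for Jag1. With 1 array per sex the difference was not tested, and the exchanged dyes cannot be told apart from the sex of the pools. The same held for every spot of 22.5% of all genes, and 56.5% had means of opposite sign.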

How the results depend on the processing

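No member passed the adjusted p threshold and none was 1.5-fold the same way on both arrays in any of the 11 ways of processing. Over all genes the number past the threshold was 6 as reported, 11 with the processed signals, 14 with an offset of 10, 11 where both groups had to be above background and 11 with outlier-flagged spots kept. In limma it was 0 after median centring, 0 with dim probes kept and 0 from a separate fit of the 4 channels (852, 1077 and 666 genes at an unadjusted p under 0.05); the cause was not tested. The number at least 1.5-fold the same way was 82, beside 224 for the processed signals and 208 for the authors' deposited table. Median centring moved the median of the members to -0.107, of the cleavage genes to -0.141 and of the nuclear genes to -0.258; the median of all genes moved to -0.0844. Without the filter the median of the other targets was 0.0637. Directions turned for Jag1 with the processed signals (-0.00014) and after median centring (-0.114), and for Hey1 after median centring (-0.0994).

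Leaving out array 1 or array 2 leaves the ratio of the other with no test. These pairs of ratios were 0.061 and -0.72 for Notch2, 0.19 and -0.49 for Notch3, -0.094 and 0.30 for Dll4, -0.083 and 0.099 for Jag1, 0.19 and -0.36 for Jag2, and -0.15 and 0.087 for Hes1. Without array 1 there was 1 member past 1.5-fold (Notch2, where 6.88% of all genes were past it) and without array 2 there were 0. The lowest and highest medians were 0.0379 and 0.0654 for the members, -0.106 and -0.0372 for the cleavage genes, -0.225 and -0.0475 for the nuclear genes, and 0.00177 and 0.15 for the other targets. The receptor median was 0.0612 on array 1 and -0.492 on array 2. Mutant and control shared an array, so ratios are paired by design. Dim probes (Dll4, Jag2, the dimmer Notch2 probe) had low signals, which limits their ratios, although all 4 spots were well above background in each pool. The median width of the members' 95% interval was 0.361 to either side.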

Other observations

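Some other genes of the pathway, chosen after their values were seen, had large ratios of opposite sign on the 2 arrays. Hey2, a target of the same family as Hey1, was at -0.07 and 0.90. Ctbp1, a corepressor, was at 0.46 and -0.59, and the histone deacetylase Hdac2 at -0.28 and 0.65. Notch4, an endothelial receptor, was at 0.13 and -0.49. Among the endothelial markers Vwf was at 1.56 and -1.33. Over all tested genes, 56.5% went opposite ways on the arrays. None of these named genes passed the limma test (adjusted p = 1 for each). That test is of the mean of both ratios, which opposite signs make smaller, and it says nothing of the difference between the arrays.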
